A study of Mus musculus with 6 samples.

Results

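The olfactomedin genes examined here are *Olfm1*, *Olfm2*, *Olfml1*, *Olfml2a*, *Olfml2b* and *Olfml3*, which were taken from the deposited count table by their symbols, 6 genes of 25140. The family was selected on measured values, with the log2 fold changes between vehicle and TGFβ of these libraries already known. The changes of these 6 genes between vehicle and TGFβ are therefore given below as a description, and their adjusted p-values are not read as a test. The RNA-seq compared primary cardiac fibroblasts of C57BL/6 mice at passage 1, with 3 libraries of vehicle-treated cells and 3 libraries of cells treated with 10 ng/mL TGFβ for 24 h. All cells were isolated from the adult heart, grown in 10% FBS, moved to 1% FBS at 80% confluence and kept there for 16 h before treatment, so the vehicle cells were also serum-reduced cultured cells. The study's text on these data also calls the cells embryonic fibroblasts, while the sample labels and its methods call them cardiac fibroblasts. Its methods also give 24 h in 1% FBS before treatment for all experiments, against the 16 h of the sample records. The 3 libraries of a group are biological replicates by the study's methods, and the animals behind each are not given in the sources used here.

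Olfactomedin proteins share a C-terminal olfactomedin domain, a beta-propeller fold, and most of them are secreted glycoproteins that assemble into oligomers and bind other extracellular or membrane proteins. Noelins (*Olfm1* to *Olfm4*) are best known from neural tissue and gut, whereas the olfactomedin-like proteins are found in connective tissue, where several of them bind matrix or growth factor regulators. TGFβ turns fibroblasts into myofibroblasts, contractile cells that secrete matrix, and OLFM2 has been studied as a cofactor of serum response factor (SRF) in TGFβ-driven smooth muscle differentiation.

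The libraries held 31072338, 29296570 and 29331999 counts with vehicle and 27851677, 28894151 and 28641986 counts with TGFβ. Values per library are given below in this order, in CPM, which are read counts scaled to library size with TMM factors. The columns of the table name the group and no replicate number, so a library is named by its total count. No library was a copy of another, since pairs within a group gave a mean chi-square over genes of 7.95 to 27.1. All 9 fibroblast markers were detected, from *Thy1* at 76.3 ± 2.77 CPM to *Col1a1* at 19992 ± 1515 CPM with vehicle (SD, n = 3 each), and 7 of them fell with TGFβ. At the same time cardiomyocyte markers were near absent except *Tnnt2* (46.7 ± 10.5 CPM). Of 7 known TGFβ target genes 5 rose and none fell by edgeR's quasi-likelihood test at an adjusted p of 0.05. Among them was *Ccn2*, which encodes a matricellular growth factor (log2 fold change 1.49, standard error (SE) 0.09, edgeR adjusted p = 2.03e-05). By the same test 20.5% of all genes tested were higher and 20.1% were lower.

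*Olfm2* was the member that was higher with TGFβ, while *Olfml1*, *Olfml2a*, *Olfml3*, *Olfml2b* and *Olfm1* were lower. All 6 members passed the filter on low counts, and all 6 were past an adjusted p of 0.05 in the fit over 14334 genes, 1 higher and 5 lower. In that fit 40.7% of all genes tested were past the same threshold, 20.5% higher and 20.1% lower. In each of the 6 members the groups did not overlap, as was the case in 53.3% of all genes tested. The members were chosen with this comparison in view, so nothing is read from these shares or from the median that follows. The median log2 fold change was -0.53 over the 6 members and -0.0013 over all genes tested.

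**Figure D1:**
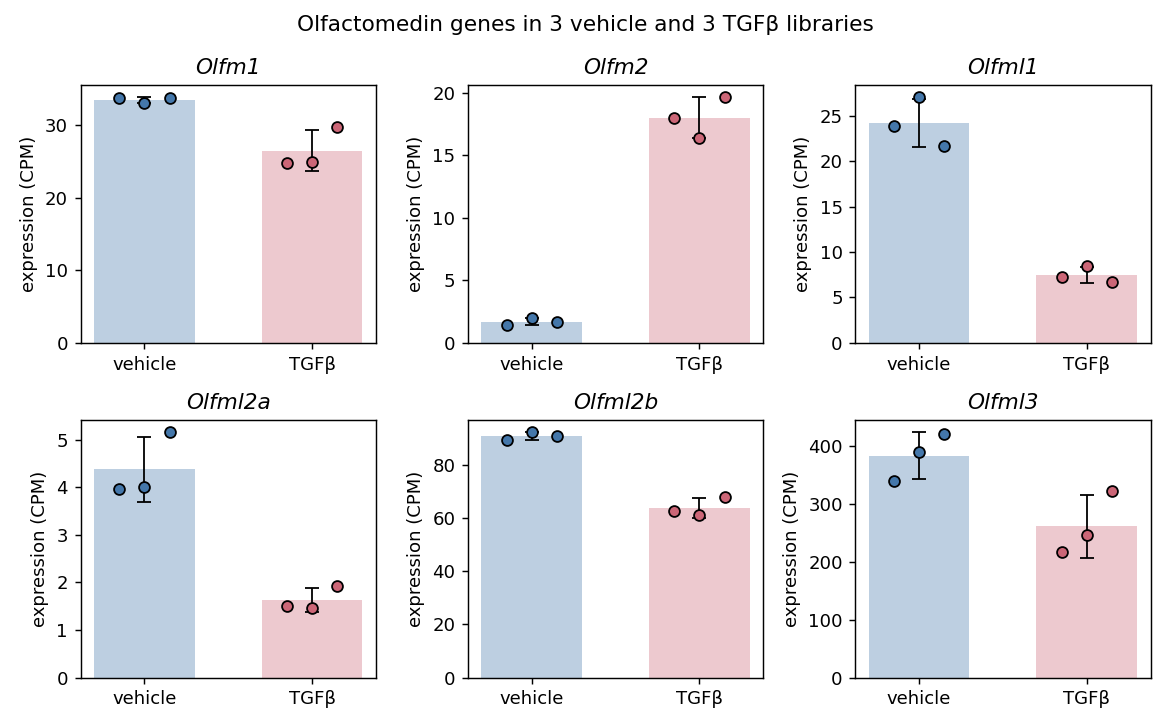
Expression in CPM (linear axes from 0, a scale for each gene) of the 6 olfactomedin genes in 3 vehicle and 3 TGFβ libraries. Points are libraries, bars are means and error bars are SD. *Olfm2* stood between 1.41 and 2.02 CPM with vehicle and between 16.4 and 19.6 CPM with TGFβ, and the other 5 genes were lower in every TGFβ library than in any vehicle library.

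*Olfm2* (ENSMUSG00000032172) encodes noelin-2, a secreted olfactomedin protein best known from brain and eye. It spans 20667690 to 20746349 on chromosome 9 (minus strand) in GRCm38 (mm10, GENCODE M21 annotation) and is protein-coding, with 4 annotated transcripts. The counts were 45, 60 and 50 with vehicle and 492, 457 and 560 with TGFβ. In CPM these were 1.41, 2.02 and 1.68 with vehicle and 18.0, 16.4 and 19.6 with TGFβ. The lowest TGFβ library thus lay far above the highest vehicle library, and the spread within each group was small beside that gap. The log2 fold change was 3.40 (SE 0.13), a 10.6-fold higher level, and 20 of the 14334 genes tested had a higher fold change. With vehicle, *Olfm2* was a gene of low expression, above 16.2% of the genes tested, and counting noise alone gives a coefficient of variation (CV) of 13.9% at its vehicle counts, against 17.9% seen.

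The RefSeq promoter windows used here give 3 start sites for *Olfm2*, at 20746296, 20728229 and 20727003 on chromosome 9. The RefSeq span of the gene reaches to 20746333, upstream of all of them. Gene counts cannot tell which start gave the added reads. The 250 bases before the 2 inner start sites, which overlap no annotated exon of the gene, are shown because *Olfm2* was the member that was higher with TGFβ, and those before the start of *Olfml1* because it had the largest fall. Sequences are RefSeq promoter windows of GRCm38.p6, from 5′ to 3′ on the strand of the gene. Capitals mark SMAD boxes (CAGAC, or GTCTG on the other strand), the GC-rich SMAD element GGCGCC and the cAMP response element TGACGTCA.
Olfm2 inner start (chr9:20727004-20727253, minus strand): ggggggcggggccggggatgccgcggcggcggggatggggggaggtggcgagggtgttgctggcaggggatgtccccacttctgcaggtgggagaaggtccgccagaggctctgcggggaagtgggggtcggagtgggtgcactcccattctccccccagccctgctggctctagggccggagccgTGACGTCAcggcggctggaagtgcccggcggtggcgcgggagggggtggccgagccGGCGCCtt
Olfm2 middle start (chr9:20728230-20728479, minus strand): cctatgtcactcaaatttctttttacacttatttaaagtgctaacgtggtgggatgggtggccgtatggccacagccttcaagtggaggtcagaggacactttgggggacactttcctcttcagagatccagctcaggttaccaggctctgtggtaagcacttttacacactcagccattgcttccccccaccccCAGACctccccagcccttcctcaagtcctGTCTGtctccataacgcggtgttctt
Olfml1 start (chr7:107567183-107567432, plus strand): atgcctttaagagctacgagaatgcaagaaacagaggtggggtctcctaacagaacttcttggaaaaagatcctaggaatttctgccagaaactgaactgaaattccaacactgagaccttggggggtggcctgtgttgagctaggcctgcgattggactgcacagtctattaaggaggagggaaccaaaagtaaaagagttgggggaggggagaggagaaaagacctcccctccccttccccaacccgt

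In the first of these windows TGACGTCA lay 64 to 57 bases before the start site and GGCGCC 8 to 3 bases before it. The second held SMAD boxes 55 to 51 and 26 to 22 bases before its start. The *Olfml1* window held none of the motifs searched. These are matches of letters and show no binding. Over 32851 promoter windows of the same length, 42.2% held a SMAD box, 9.59% held GGCGCC and 1.55% held TGACGTCA. Of the 9 windows of the 6 members, 5 held a SMAD box, 3 held GGCGCC and 1 held TGACGTCA. The SMAD boxes stood before the middle and outer *Olfm2* starts, both *Olfm1* starts and the *Olfml2b* start. GGCGCC stood before the inner *Olfm2* start, the *Olfm1* start at 28193093 and the *Olfml2b* start. *Olfm1* and *Olfml2b* were lower with TGFβ, so both motifs stood before genes of either direction. The other motifs searched on both strands were the SMAD palindrome GTCTAGAC (0.167% of all windows, 0 of 9 here), the AP-1 site TGACTCA or TGAGTCA (4.46%, 0 of 9), the CArG box, the SRF site (1.47%, 0 of 9), and the TEAD site GGAATG or CATTCC (12.6%, 1 of 9, before *Olfml3*). The GC box (GGGCGG or CCGCCC), which is not in capitals above and can overlap GGCGCC, stood in 32.7% of all windows and in 7 of 9 here, among them the inner *Olfm2* window at 247 to 242 bases before the start. TATAAA was searched on the strand of the gene and stood in 7.59% of all windows and 0 of 9 here. The GC content of the *Olfm2* windows was 74.8% at the inner, 51.6% at the middle and 76.0% at the outer start, with a median of 52.4% over all windows.

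*Olfml1* (ENSMUSG00000051041), which encodes a secreted olfactomedin-like protein, spans 107567446 to 107591094 on chromosome 7 (plus strand). The libraries held 23.9, 27.0 and 21.7 CPM with vehicle and 7.24, 8.42 and 6.70 CPM with TGFβ. Every TGFβ library was thus under every vehicle library, with like relative spread in both groups (CV 11.1% and 11.8%). The level was 3.25-fold lower with TGFβ, a log2 fold change of -1.70 (standard error 0.11), and 189 of the genes tested had a lower fold change.

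*Olfml2a* and *Olfml2b* encode photomedin-1 and photomedin-2, a pair of secreted proteins known to bind heparin and chondroitin sulfate. *Olfml2a* (ENSMUSG00000046618) spans 38931978 to 38963753 on chromosome 2 and *Olfml2b* (ENSMUSG00000038463) spans 170644532 to 170682789 on chromosome 1, both in the plus orientation. *Olfml2a* was measured at 3.96, 4.01 and 5.16 CPM with vehicle and at 1.499, 1.47 and 1.93 CPM with TGFβ. *Olfml2b* was measured at 89.2, 92.3 and 90.6 CPM with vehicle and at 62.5, 60.9 and 67.9 CPM with TGFβ. Both were thus lower in every TGFβ library, and in both the TGFβ library of 28641986 counts was the highest of its group. The log2 fold change was -1.42 (standard error 0.18) for *Olfml2a* and -0.51 (standard error 0.05) for *Olfml2b*, so the paralog with fewer reads had the larger relative fall. The vehicle libraries of *Olfml2b* varied by a CV of 1.69%, about as much as counting alone gives (1.90%), while those of *Olfml2a* varied by 15.5%, against 8.67% from counting.

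*Olfml3* (ENSMUSG00000027848) encodes a secreted scaffold protein known to bind BMP1, chordin and BMP4, and to promote the growth of blood vessels. It spans 103722222 to 103738001 on chromosome 3 (minus strand). It had by far the most reads of the 6 genes, above 97.3% of all genes tested, with 341, 391 and 422 CPM with vehicle and 217, 247 and 322 CPM with TGFβ. The groups did not overlap, but the highest TGFβ library, that of 28641986 counts, came close to the lowest vehicle library, that of 31072338 counts. The log2 fold change was -0.55 (standard error 0.14), or 1.47-fold lower with TGFβ. The CV within the TGFβ group was 20.7%, the widest of the 6 genes, against 1.17% from counting alone.

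*Olfml3* was the member whose call changed when single libraries were left out of the unpaired fit. The log2 fold change was no longer past an adjusted p of 0.05 by edgeR without the vehicle library of 29296570 counts (-0.54) or of 29331999 counts (-0.48), nor without the TGFβ library of 27851677 counts (-0.43) or of 28894151 counts (-0.51). Without the TGFβ library of 28641986 counts it was -0.73. In the 4 fits where the call was lost, the edgeR adjusted p of *Olfml3* was between 0.0501 and 0.0638. In those fits 4489 to 5012 of all genes tested were past the threshold, against 5828 with all libraries.

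The order of the libraries within each group was the same for *Olfml3* as for the summed level of 6 endothelial markers. These markers (*Pecam1*, *Cdh5*, *Kdr*, *Tek*, *Vwf* and *Emcn*) summed to 407, 465 and 626 CPM with vehicle and to 377, 423 and 512 CPM with TGFβ. *Tek* did not follow the sum, with 79.7, 92.7 and 74.6 CPM with vehicle and 94.8, 115 and 83.8 CPM with TGFβ, lowest in the libraries where *Olfml3* was highest. The groups overlapped, and none of the 6 markers was past an adjusted p of 0.05. Summed leukocyte markers had the same order, from 241 to 344 CPM with vehicle and from 209 to 312 CPM with TGFβ, and so did the 9 fibroblast markers. All markers of the endothelial and leukocyte lists were detected. The part of other cell types in the *Olfml3* difference was not tested. In bulk samples fewer cells of a type and less RNA per cell cannot be told apart.

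**Figure D2:**
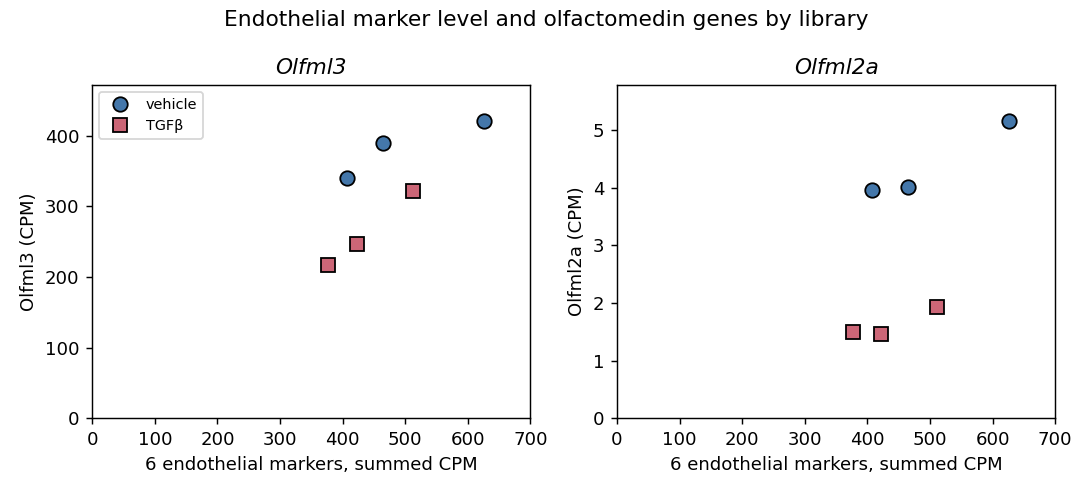
Expression of *Olfml3* and *Olfml2a* in CPM against the summed CPM of 6 endothelial markers, for each of the 6 libraries (circles vehicle, squares TGFβ, linear axes from 0). In both groups the library with the highest marker level, 626 CPM with vehicle and 512 CPM with TGFβ, also had the highest level of both genes. *Olfm1*, not drawn, was highest in the same TGFβ library, while its vehicle libraries were nearly level (33.0 to 33.7 CPM). With TGFβ, *Olfml2a* did not follow the order of the markers, with 1.499 CPM at a sum of 377 CPM and 1.47 CPM at 423 CPM.

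*Olfm1* (ENSMUSG00000026833) encodes noelin-1, also called pancortin, a secreted protein best known from brain, where it binds AMPA receptors and the Nogo receptor. It spans 28192992 to 28230736 on chromosome 2 (plus strand), 10.7 Mb from *Olfml2a*. The libraries held 33.7, 33.0 and 33.7 CPM with vehicle and 24.8, 24.9 and 29.7 CPM with TGFβ. The vehicle libraries had a CV of 1.09%, whereas the TGFβ library of 28641986 counts stood above the others of its group. That library was the highest of its group for each member except *Olfml1*, for which it was the lowest. Over all 5828 genes past the threshold, it was the TGFβ library nearest to vehicle in 37.0%. The library of 28894151 counts was nearest in 36.5% and that of 27851677 counts in 26.5%. The log2 fold change was -0.34 (standard error 0.07), the smallest of the 6 genes in size. *Olfm1* and *Olfm2*, which encode related noelins, thus moved in opposite directions.

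**Figure D3:**
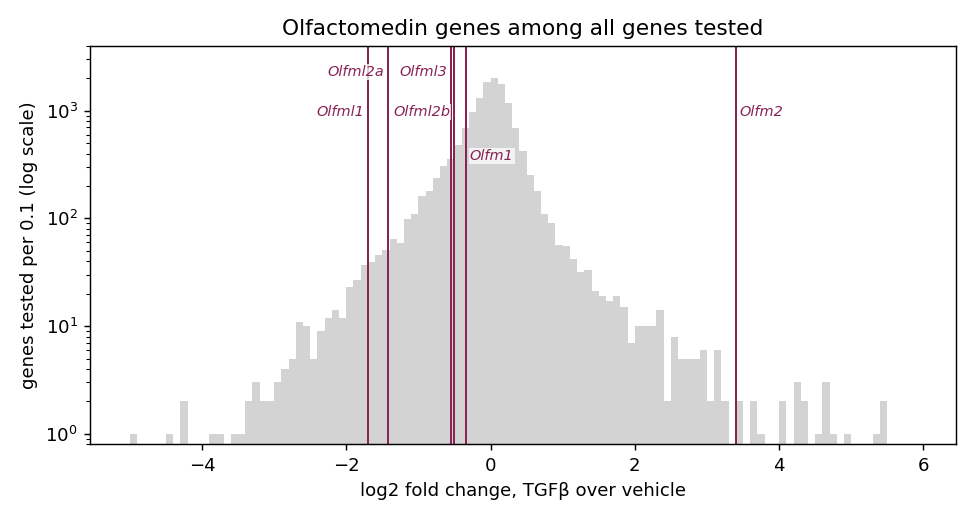
Number of genes tested per 0.1 of log2 fold change (TGFβ over vehicle, grey bars, log axis), with the 6 olfactomedin genes as vertical lines. *Olfm2* at 3.40 lies in the far right tail, *Olfml1* at -1.70 and *Olfml2a* at -1.42 in the left tail, and the other 3 between -0.55 and -0.34.

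Levels of different genes were compared as CPM per kilobase of annotated exon. With vehicle the order was *Olfml3* at 62.4 ± 6.62, *Olfml2b* at 29.3 ± 0.50, *Olfml1* at 14.4 ± 1.59, *Olfm1* at 9.42 ± 0.10, *Olfml2a* at 0.78 ± 0.12 and *Olfm2* at 0.64 ± 0.11 CPM per kilobase (SD, n = 3 each). Of the neighbours in this order only *Olfml2a* and *Olfm2* had vehicle libraries whose ranges overlapped. With TGFβ the order became *Olfml3* at 42.5 ± 8.82, *Olfml2b* at 20.6 ± 1.18, *Olfm1* at 7.45 ± 0.80, *Olfm2* at 6.75 ± 0.61, *Olfml1* at 4.42 ± 0.52 and *Olfml2a* at 0.29 ± 0.05 CPM per kilobase (SD, n = 3 each). The ranges of *Olfm1* and *Olfm2* overlapped with TGFβ. With the longest transcript as the length, *Olfml2a* (0.78) rather than *Olfm2* (0.85) had the lowest vehicle level in CPM per kilobase.

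Summed over the 6 genes, the level was 117 ± 6.88 CPM per kilobase with vehicle and 82.1 ± 10.8 CPM per kilobase with TGFβ (SD, n = 3 each), and the groups did not overlap. *Olfm2* made up 0.487% to 0.632% of this sum in the vehicle libraries and 7.82% to 9.16% in the TGFβ libraries. The share of *Olfml1* went from between 10.6% and 13.4% to between 4.22% and 6.38%. The share of *Olfml3* was 50.7% to 56.3% with vehicle and 47.8% to 55.5% with TGFβ, ranges that overlapped. The exon length of *Olfml3* is uncertain, with 6161 bases over all annotated exons and 2320 within its RefSeq span, and by the shorter length its vehicle level was 166 ± 17.6 CPM per kilobase (SD, n = 3). By that length *Olfml2a* stood at 1.82 ± 0.28 CPM per kilobase with vehicle, and its libraries no longer overlapped those of *Olfm2*. The shares of the sum moved as well, to 0.265% to 0.338% with vehicle and 4.08% to 5.12% with TGFβ for *Olfm2*, to 5.45% to 7.09% and 2.19% to 3.44% for *Olfml1*, and to 72.8% to 76.9% and 70.5% to 76.5% for *Olfml3*.

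**Figure D4:**
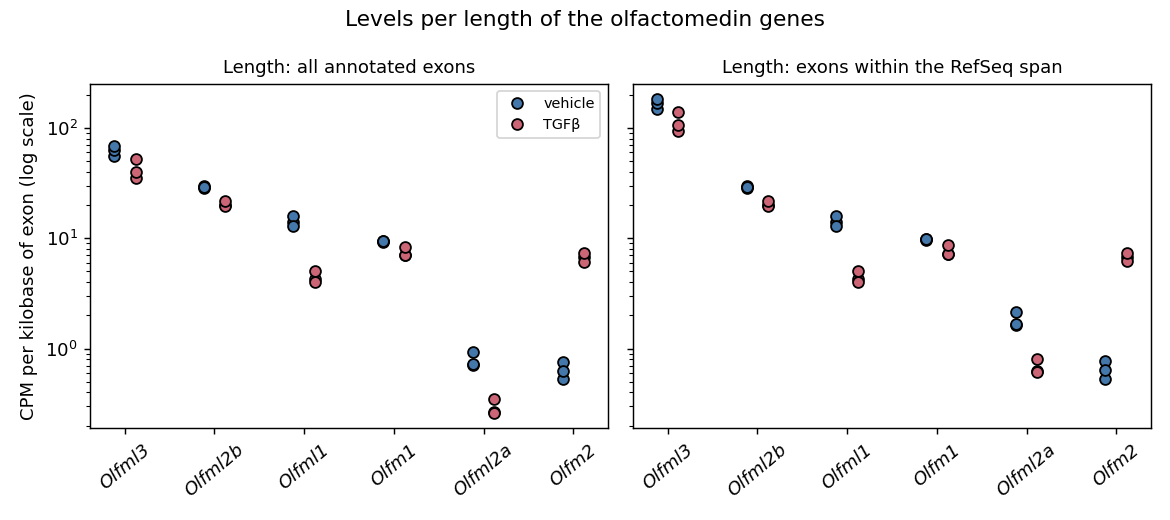
Levels of the 6 genes in CPM per kilobase (log axis) in each library, with vehicle to the left and TGFβ to the right of each gene, by the length of all annotated exons or of the exons within the RefSeq span. By both lengths *Olfml3* had the highest level and *Olfm2* had the lowest vehicle level, and *Olfm2* with TGFβ lay near *Olfm1*.

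Besides the 6 genes, 7 mouse genes that encode an olfactomedin domain were looked up, of which 4 passed the filter on low counts. *Gldn*, which encodes gliomedin, an adhesion protein of Schwann cells at the node of Ranvier, rose, *Adgrl2* fell, and *Adgrl1* and *Adgrl3* did not pass the test. The 3 *Adgrl* genes encode latrophilins, adhesion receptors that carry the domain outside the cell. *Gldn* had 5, 2 and 10 counts with vehicle and 31, 21 and 38 counts with TGFβ. All its TGFβ libraries were above its vehicle libraries, at very low levels of 0.19 ± 0.14 CPM and 1.07 ± 0.30 CPM (SD, n = 3 each). Its log2 fold change was 2.50 (SE 0.45, edgeR adjusted p = 0.00353), and with single libraries left out it ran from 2.12 (vehicle, 29296570 counts left out) to 3.19 (vehicle, 29331999 counts left out). *Gldn* passed the filter through its TGFβ libraries alone, so its adjusted p and its call are not read as a test. *Myoc*, which had counts with vehicle alone, did not pass the filter. The calls among these 7 genes thus depend on the filter. *Sox10*, a defining Schwann cell factor, had 4 to 15 counts in each library.

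*Adgrl2* was measured at 57.2, 52.4 and 63.3 CPM with vehicle and at 46.5, 40.3 and 47.5 CPM with TGFβ (log2 fold change -0.36, SE 0.09, edgeR adjusted p = 0.0114). The groups did not overlap. *Adgrl1* stood at 62.3 ± 4.68 CPM and 60.0 ± 5.95 CPM (SD, n = 3 each), with a log2 fold change of -0.05 (SE 0.08, edgeR adjusted p = 0.634). *Adgrl3* stood at 1.83 ± 0.15 CPM and 2.21 ± 0.14 CPM (SD, n = 3 each) and did not pass the test (edgeR adjusted p = 0.174). An antisense gene shares 15.7% of the 75-base windows of the longest *Adgrl3* transcript, and it held 1 count. Genes on the opposite strand share 7.99% of those windows of *Adgrl1*. Of these genes *Gm10644* held 20 counts and the others none, beside 10713 counts for *Adgrl1*.

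Of the 3 genes with too few counts to test, *Myoc*, which encodes myocilin, a protein of the eye's outflow tissue linked to glaucoma, had 10, 14 and 9 counts with vehicle and 0 in each TGFβ library. For a lower limit on its fall, the TGFβ group was set to 3 counts, the limit for an observed 0. With the vehicle counts taken as observed, this lower limit was 10.1-fold. That limit leaves out the counting error of the 33 vehicle counts and the spread between libraries. This limit was between 6.66 and 10.9 with single libraries left out, the lowest without a TGFβ library. *Olfm3* and *Olfm4*, noelins of brain and gut, had 1 count each over the 6 libraries. They were near or under the limit of detection in both groups.

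**Figure D5:**
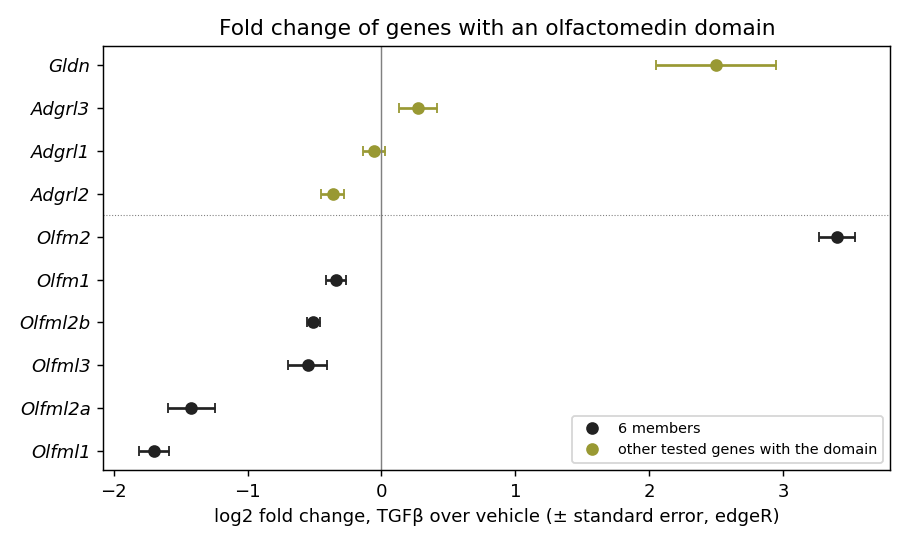
Log2 fold change (TGFβ over vehicle) with standard error from edgeR for the 6 olfactomedin genes (black) and the 4 other tested genes that encode the domain (olive). *Olfm2* at 3.40 and *Gldn* at 2.50 lie to the right, *Adgrl1* at -0.05 lies near 0, and the 5 other members and *Adgrl2* lie to the left.

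Known partners of these proteins were taken from lists of textbook binding partners. These lists were chosen with earlier results of these data known, and 20.1% of all genes tested were lower with TGFβ by edgeR. Of the 3 OLFML3 partners, *Bmp4*, a BMP ligand, was 2.14-fold lower with TGFβ (SE of the log2 fold change 0.08, edgeR adjusted p = 5.91e-05). Vehicle libraries held 84.2 ± 8.04 CPM and TGFβ libraries 39.4 ± 2.90 CPM (SD, n = 3 each). *Bmp1*, the procollagen C-proteinase, and *Chrd*, the BMP antagonist chordin, did not pass the test, with log2 fold changes of 0.10 (edgeR adjusted p = 0.431) and 0.23 (edgeR adjusted p = 0.128). Of 7 OLFM1 partners 4 were tested, and 1 fell. This was *Lingo1*, a coreceptor of the Nogo receptor, at 9.31 ± 0.43 CPM and 6.29 ± 0.87 CPM (SD, n = 3 each). The Nogo receptor gene *Rtn4r* stood at 6.41 ± 0.19 CPM and 5.82 ± 0.30 CPM (edgeR adjusted p = 0.238), and the AMPA receptor genes *Gria3* and *Gria4* did not pass the test either.

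Of 7 latrophilin ligands 4 were tested and 1 fell, *Tenm4*, a teneurin (log2 fold change -0.995, SE 0.16, edgeR adjusted p = 0.00195). *Flrt2*, another ligand, had a log2 fold change of 0.36 (edgeR adjusted p = 0.316) and was past the threshold at 0.76 without the vehicle library of 31072338 counts, which held 102 CPM against 46.5 and 58.4 CPM in the other vehicle libraries. *Flrt3*, at -0.54 (edgeR adjusted p = 0.0655), was past it with limma-voom (-0.57) and, at -0.79, without the TGFβ library of 27851677 counts.

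The list for SRF, its coactivators and smooth muscle proteins, which OLFM2 has been studied with, held 9 genes. Of these 5 rose, none fell and 4 did not pass the test. In the same fit 20.5% of all genes tested were higher with TGFβ. The list was chosen with earlier results of these data known, so its counts and median are a description. A link of these genes to *Olfm2* was not tested. *Srf* itself rose, with 43.6 ± 2.17 CPM in vehicle and 55.2 ± 3.57 CPM in TGFβ libraries (SD, n = 3 each, log2 fold change 0.34, SE 0.06, edgeR adjusted p = 0.00332). *Cnn1*, which encodes calponin, had the largest rise of the list (log2 fold change 1.86, SE 0.15, edgeR adjusted p = 7.46e-05). *Acta2*, *Tagln* and *Smtn* rose by less, and the smooth muscle myosin gene *Myh11*, at -0.26, did not pass the test (edgeR adjusted p = 0.205). *Myocd*, the coactivator myocardin, had 10 to 25 counts in each library and a log2 fold change of 0.76 (edgeR adjusted p = 0.0521), past the threshold with limma-voom (0.79) and, at 0.98, without the vehicle library of 31072338 counts. The median log2 fold change of the list was 0.34, beside -0.0013 over all genes tested.

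The genes nearest to each member in pattern were taken by Pearson's r of log2 CPM over the 6 libraries. The 10368 genes compared had a mean of at least 5 CPM. The 6 members were left out of them, so no member could be named or counted. This measure ignores the size of a change, the 6 points share the 2 groups, and r is given as a description. For *Olfm2* they were *Gmppb*, *Fkbp7* and *Srpr* (r = 0.999 each), which encode a mannose-nucleotide synthesis enzyme, a prolyl isomerase of the endoplasmic reticulum and a subunit of the signal recognition particle receptor. Their log2 fold changes were 0.58, 0.56 and 0.38, far under the 3.40 of *Olfm2*, and 1142 genes reached an r of at least 0.95. For *Olfml1* they were *Lipa*, *Capn5* and *Bicc1* (r = 0.999 each), with log2 fold changes of -0.39, -0.82 and -1.02. For *Olfml2a* they were *Kitl*, *Tmtc1* and *Cp* (r between 0.998 and 0.999), of which *Kitl* encodes the ligand of the receptor KIT and *Cp* the copper protein ceruloplasmin. For *Olfml2b* they were *Spidr*, *Btbd2* and *Zc3h12a* (r between 0.997 and 0.999). For *Olfml3* they were *Ddt*, *Phc1* and *Glmp* (r between 0.998 and 0.999), and for *Olfm1* they were *Arpin*, *Smpd4* and *Hlx* (r between 0.994 and 0.997). Of these, *Glmp* (log2 fold change -0.23) and *Hlx* (-0.45) were past the threshold. *Ddt* (-0.29), *Phc1* (-0.12), *Arpin* (-0.11) and *Smpd4* (-0.15) did not pass the test. Only 206 and 194 genes reached an r of 0.95 with *Olfml3* and *Olfm1*, against 772 with *Olfml2a* and 765 with *Olfml2b*.

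The tested genes annotated as protein-coding that start nearest to each member on either side numbered 12. Of these 5 were past the threshold in the direction of the member, 4 in the opposite direction and 3 did not pass the test. Over all genes tested 40.7% were past it, 20.5% higher and 20.1% lower. Whether the neighbours differ from these shares was not tested. Next to *Olfm2*, the collagen gene *Col5a3* (68.7 kb away) had a log2 fold change of -1.06 (edgeR adjusted p = 0.00851), opposite to *Olfm2*. Next to *Olfml1*, *Ppfibp2* (27.8 kb away) rose by 0.91 (edgeR adjusted p = 7.04e-05), opposite to *Olfml1*. *Nr6a1*, which starts 4.29 kb from *Olfml2a*, fell with it, at -0.83 (edgeR adjusted p = 0.0039). No window of 75 bases in the longest transcript of any of the 6 members occurs in transcripts of other genes, and the 1 gene that overlaps a member, a pseudogene within *Olfml2a*, had no counts.

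Among markers of other cells, *Cspg4*, a pericyte marker, rose (log2 fold change 1.45, SE 0.18, edgeR adjusted p = 0.000614), and the other 3 pericyte markers did not pass the test. The pericyte list summed to 30.4 to 46.6 CPM with vehicle and 52.5 to 93.5 CPM with TGFβ. That difference came mainly from *Cspg4*, with means of 19.5 CPM with vehicle and 53.3 CPM with TGFβ. In the other 3 the groups overlapped, with *Rgs5* at means of 13.6 and 15.1 CPM. *Tubb3*, a neuronal tubulin, rose as well (log2 fold change 1.32, SE 0.20, edgeR adjusted p = 0.00175), while *Sox10* and *Mbp* did not pass the test. Summed mesothelium markers were 24.1 to 82.5 CPM with vehicle and 15.3 to 40.5 CPM with TGFβ, and cardiomyocyte markers 38.2 to 59.5 CPM and 27.2 to 40.2 CPM, both with overlapping groups. The part of these lists in the values of the 6 members was not tested.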

How the data were processed

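RNA was measured in 3 vehicle and 3 TGFβ libraries. The authors made stranded poly(A) libraries, aligned single-end reads of 75 bases to mm10, counted them per gene and ran DESeq2. The aligner, counter, annotation and use of strand are not given in the sources used here. The deposited values are raw counts per gene and library, as whole numbers. The table also holds the authors' normalized mean and their own comparison, which were not used. No column of per-sample values beyond the 6 was present (0 left out).

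TMM factors, the filterByExpr filter (14334 genes kept) and the quasi-likelihood test of TGFβ against vehicle came from edgeR 4.0.16 (R 4.3.3), with no covariate and Benjamini-Hochberg adjustment over all genes kept, at a threshold of 0.05. The standard error is the log2 fold change divided by the root of the F statistic. The p-values set the difference between the groups against the spread between these libraries within a group. CPM uses effective library sizes. Totals of 27851677 to 31072338 counts leave counting error small except for genes of few counts, and the limit for an observed 0 is 3 counts over the group. DESeq2 1.42.0, limma-voom (limma 3.58.1), other scalings, other filters and leaving out each library were tried. The steps were tested on simulated counts drawn with 1 common spread for all genes (a biological CV of 7.97%). That test does not cover genes of wider spread, such as *Olfml3* with TGFβ (CV 20.7%). Gene models are GENCODE M21 (25086 of 25140 identifiers matched), and promoters are RefSeq's, found by symbol for 6 of 6 members.

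The 6 members, the lists and the rules were chosen with earlier results of these data known. Genes named are the members, the lists, the 3 genes most like each member and the nearest tested neighbours, some of which are not reported here. The exon length within the RefSeq span was added after seeing the data.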

Additional observations from a re-analysis of the deposited data

How the results depend on the processing

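*Olfm1*, *Olfm2*, *Olfml1*, *Olfml2a* and *Olfml2b* kept their direction and their side of the threshold under each of the 12 alternatives of scaling, tool, filter and libraries. *Olfml3* kept its direction under all 12 and its side under 8. All 12 refit the comparison with which the 6 members were chosen. This stability is thus a description and no further evidence for the changes. With single libraries left out, the log2 fold change was between -0.73 and -0.43 for *Olfml3*, between 3.28 and 3.54 for *Olfm2* and between -1.80 and -1.61 for *Olfml1*. The number of members past the threshold was 5 or 6. With a filter of 1 CPM in 3 libraries, 1 of the other genes with the domain was past the threshold, since *Gldn* is then not tested. *Myoc* was counted as past it by DESeq2 and without a filter (3 of 7 genes each). Some log2 fold changes that did not pass the test changed sign, among them several markers of other cells. Of the tested partners, ligands, TGFβ targets and other genes with the domain, these were *Gria4* (0.00027 without a filter, and -0.10 to 0.089 with libraries left out), *Tenm3* (-0.0083 with upper quartile factors, and -0.078 to 0.11) and *Smad7* (-0.0054 with upper quartile factors, and -0.041 to 0.074), with *Adgrl1* between -0.15 and 0.0030 with libraries left out. Levels per kilobase with vehicle moved with the length used. With the longest transcript they were 12.1 for *Olfm1*, 0.85 for *Olfm2*, 0.78 for *Olfml2a* and 70.3 for *Olfml3*. With exons in the RefSeq span they were 9.69 for *Olfm1*, 1.82 for *Olfml2a* and 166 for *Olfml3*. No paired analysis was possible because the columns carry no replicate numbers. Genes under about 10 counts a library are limited by depth.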
